A study of Homo sapiens with 12 samples.

Results

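The 37 genes described here are the nuclear factor kappa B (NF-kB) pathway and the inflammatory cytokines and effectors that it is known to control, chosen by symbol from a deposited table of 60240 genes. They were followed in HL-60, an established human promyelocytic leukaemia line labelled as wild type, across 11 RNA-seq libraries. Cells seeded at 100000 per mL in 6-well plates received 100 nM decitabine at 0, 24 and 48 h, or the vehicle DMSO, and RNA was taken at 6, 72 and 120 h. The libraries taken at 6 h had therefore received a single dose. Decitabine is a cytidine analogue that is incorporated into DNA, traps DNA methyltransferases and lowers DNA methylation as cells divide. The labels list 12 samples in 6 groups of 2, and 11 had values: 5 DMSO libraries (2 at 6 h, 1 at 72 h and 2 at 120 h) and 6 decitabine libraries (2 at each time). The duplicates were wells of a single line and nothing says that they were separate cultures, and the p-values therefore reflect the spread among these wells alone, which could be technical. RNA was depleted of ribosomal RNA and made into stranded libraries read as single-end 50-base reads.

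NF-kB is a family of dimeric transcription factors built from the subunits encoded by NFKB1, NFKB2, REL, RELA and RELB. In resting cells the dimers are held in the cytoplasm by IkB inhibitors. Signals from tumour necrosis factor, interleukin-1 or Toll-like receptors pass through adaptor proteins, kinases and ubiquitin chains to the IkB kinase complex, which marks IkB for destruction and frees the dimers to enter the nucleus. Many of the genes that they switch on encode inhibitors of the same pathway, such as NFKBIA and TNFAIP3, and others encode the cytokines, adhesion molecules and survival factors of the inflammatory response of myeloid cells.

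The promoters of the members were examined for the sequence that NF-kB is known to bind. RefSeq promoter windows (GRCh38.p14, 250 bases before to 50 after each annotated start) were matched for 31 of the 37 members, and a match to the 10-base NF-kB consensus on either strand lay in a window of 14 of them (45.2%), against 7.09% of the 27305 genes in the same table. The AP-1 consensus TGANTCA, also searched on both strands, was found for 7 of 31 (22.6%), against 9.37% of all genes. Of the 14 members with a window that rose at 120 h, 5 held an NF-kB match, as did 8 of the 16 that were tested and not called. By window it was 8 of 20 (40.0%) and 10 of 33 (30.3%), and neither difference was tested. These windows held a median of 23 CpG dinucleotides over the 54 windows of the members, against 14 over all 35116 windows. The 5 members with a match that rose at 120 h are printed 5′ to 3′ on the coding strand, with matches to the NF-kB consensus on either strand in capitals. They were picked for having both, and a link between match and rise was not tested. NFKBIZ (chr3:101827740-101827989, plus strand), NFKBIA (chr14:35404750-35404999, minus strand) and BIRC3 (chr11:102317234-102317449, plus strand, with 2 matches) are shown up to the annotated start of the gene. MAP3K8 (chr10:30433982-30434011, plus strand) and TNFAIP3 (chr6:137867188-137867217, plus strand, with 2 matches) are shown as 30 bases at the matches. These begin 29 bases before the RefSeq start of the window in MAP3K8, and 67 and 55 bases before it in TNFAIP3. They lie past the gene start only in another annotation, GENCODE 29.
NFKBIZ: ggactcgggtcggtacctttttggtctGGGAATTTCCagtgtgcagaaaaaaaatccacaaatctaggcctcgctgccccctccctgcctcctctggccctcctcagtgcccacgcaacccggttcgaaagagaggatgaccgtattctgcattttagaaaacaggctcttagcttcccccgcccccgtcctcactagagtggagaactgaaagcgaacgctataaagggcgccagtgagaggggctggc
NFKBIA: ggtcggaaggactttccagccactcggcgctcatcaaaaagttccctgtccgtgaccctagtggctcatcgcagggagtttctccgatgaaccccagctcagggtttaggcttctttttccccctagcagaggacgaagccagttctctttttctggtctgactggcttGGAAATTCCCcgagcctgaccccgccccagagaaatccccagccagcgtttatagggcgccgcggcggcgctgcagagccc
BIRC3: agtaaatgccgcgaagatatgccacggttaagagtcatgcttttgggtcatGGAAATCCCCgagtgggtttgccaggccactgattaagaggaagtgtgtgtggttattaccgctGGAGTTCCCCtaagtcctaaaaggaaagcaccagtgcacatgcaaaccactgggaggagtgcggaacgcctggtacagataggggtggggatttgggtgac
MAP3K8: ggggagacgcGGAATTTCCCagcgcggggg
TNFAIP3: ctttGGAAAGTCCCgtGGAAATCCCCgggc
A match is a description of the letters and shows neither binding nor use of the site in these cells.

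Values are size-factor-normalised counts, and the depth behind them was estimated at 14427335 to 32908453 counts per library, with 1 count worth 0.407 to 0.961 normalised units. The column heading names 12 libraries over 11 columns of values, and every result rests on reading it as starting at the gene symbol. Decitabine 72 h replicate 2 stood apart: it differed from its duplicate by a median absolute log2 difference of 0.590, against 0.190 to 0.261 in the other pairs. The single DMSO library at 72 h was taken to vary like the other groups. One transcript, FP671120.7, took 3.89 to 10.9% of the values in the 4 libraries of 120 h and 5.25% in decitabine 72 h replicate 1, and at most 0.794% in the others. Mitochondrial mRNA was likewise highest in those 5 libraries (0.662 to 0.812%, against 0.238 to 0.415%). At 120 h both treatments carried these shares, and their part in the results was not tested. As a check of the line, the promyelocyte genes MPO, ELANE, PRTN3, AZU1, CTSG, MYC, MYB, CD33 and RNASE2 were all expressed above the filter.

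Of the 37 members, 35 were tested. IL6 was listed at 0 in every library, and OSM, an interleukin-6 family cytokine, stayed between 1.73 and 6.80, under the filter of 10 in at least 2 libraries. A further 6 of the tested members reached the filter through decitabine libraries alone: TRAF1, BIRC3, IL1A, IL10, ICAM1 and G0S2. Per kilobase of exon, the median level over the 11 libraries was highest for IRAK1 (353), SOD2 (277), IRAK3 (248) and TNFAIP8 (236), and lowest, after IL6, for BIRC3 (0.885) and TRAF1 (1.32). Exons of RELA, NFKBIB, IRAK3, TNFAIP3, IL6, ICAM1, SOD2 and IER3 overlap a gene on the opposite strand, and those of REL, BCL3, IRAK1, IRAK3 and SOD2 one on the same strand. Since counting by strand is not stated, reads in these overlaps cannot be assigned with certainty.

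After 120 h of decitabine, 4 of the 7 tested cytokine genes were called higher, with 5 of 7 effector, 3 of 7 signalling, 2 of 4 TNF-induced and 2 of 5 IkB family genes and 0 of 5 REL subunit genes. At 72 h the calls were 1 cytokine, 2 TNF-induced and 3 effector genes. At 6 h no member was called at an adjusted p under 0.05, nor was any of the 16152 genes tested (0% higher and 0% lower). The test was limma on log2(value + 1), adjusted over all genes by Benjamini-Hochberg, and log2 changes are given ± SE. At an unadjusted p under 0.05 there were 2 members and 541 genes in all, and without the variance trend, or on the 6 h libraries alone, limma called 2 genes higher and 1 lower, none of them members. At 72 h 6 members rose and 0 fell, where 1.88% of all genes rose and 0.310% fell. At 120 h 16 members rose and 0 fell, where 9.91% of all genes rose and 6.00% fell. The members were chosen with earlier results of these data known, which limits what such counts show. With other scalings the split of all genes at 120 h moved from 1601 higher and 969 lower to 1513 and 1465 (quantile) or 1861 and 690 (equal totals), and the members' to 17 and 0 or 19 and 0. At 72 h the split of all genes moved from 303 higher and 50 lower to 284 and 97 or 240.0 and 112, and the members' to 6 and 0 or 5 and 0. These scalings moved the median of all genes from 0.07 to -0.10 or 0.19 at 120 h, and from 0.09 to -0.04 or -0.10 at 72 h. Among the 29 members that reached the filter in the DMSO libraries alone, 5 rose at 72 h and 11 at 120 h, against 1.36% and 8.32% of all such genes. The median log2 change of the 35 tested members was 0.04 at 6 h, 1.00 at 72 h and 1.10 at 120 h, and that of all tested genes was -0.01, 0.09 and 0.07.

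The counts leaned on single libraries, and those of all genes moved with them. Leaving out a library of a time not compared keeps the log2 change as it was. It acts only through the shared estimate of the spread and the genes kept. At 120 h the 16 members called became 10 without DMSO 120 h replicate 1, where 5.58% of all genes were higher. They became 8 without decitabine 120 h replicate 1 or 2, where 3.66% and 3.95% were. IL1A, IL1B, TNFAIP2, PTGS2, ICAM1, PLAUR, IER3 and G0S2 were called whichever library was left out. At 72 h the 6 members called became 3 without DMSO 120 h replicate 1 or 2 (1.31% and 1.29% of all genes higher) and 2 without decitabine 120 h replicate 1 or 2 (0.784% and 0.801%). Without decitabine 72 h replicate 1 the 72 h comparison was 1 library against 1, and the decitabine library kept was the one that stood apart. No spread at 72 h then enters the error, and calls gained in fits of 1 against 1 at 72 h are not read as support. More members and more of all genes were called there. IER3 and PLAUR were called at 72 h in all of these fits. With only the libraries of 72 h fitted no member was called, and with all 5 DMSO libraries as the control 18 were (16 higher and 2 lower, against 10.7% and 7.35% of all genes).

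In 21 of the 35 tested members, all 4 decitabine libraries of 72 and 120 h lay above all 7 other libraries, a separation seen in 12.7% of all tested genes. They were NFKBIA, NFKBIZ, IRAK3, MAP3K8, TRAF1, TNFAIP3, TNIP1, TNFAIP2, TNFAIP8, LTB, IL1A, IL1B, IL1RN, IL10, IL18, PTGS2, ICAM1, CD83, PLAUR, IER3 and G0S2. Counting only genes that reached the filter in the DMSO libraries alone, it was 16 of 29 members, without TRAF1, IL1A, IL10, ICAM1 and G0S2, and 10.8% of genes. The opposite, with those 4 libraries below all others, was seen in 1 member, SOD2, and in 8.92% of all genes. The heat map of every member shows both patterns library by library.

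**Figure D1:**
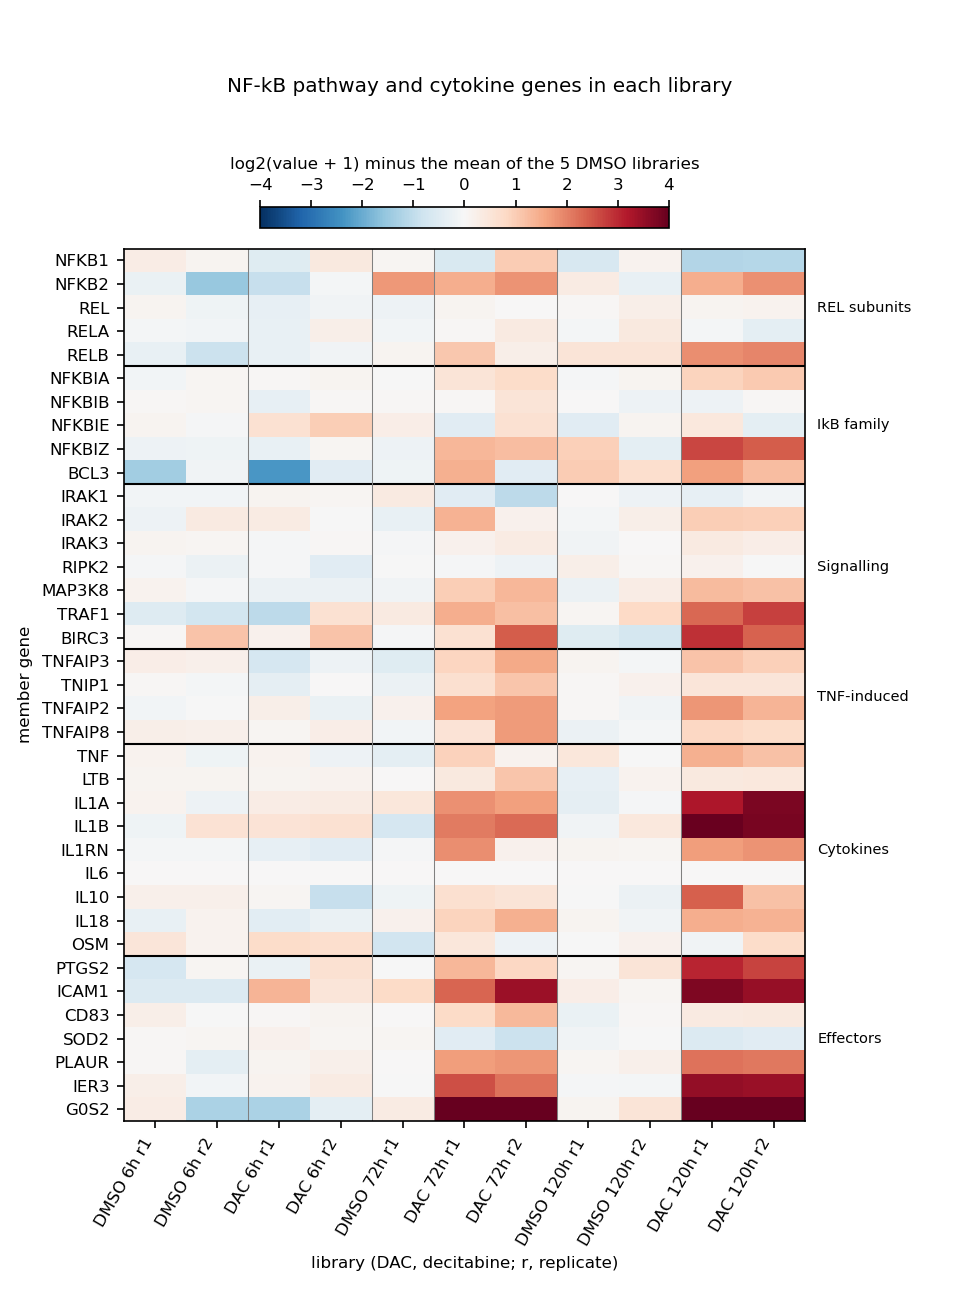
Level of each of the 37 members (rows, grouped by role) in each of the 11 libraries (columns), as log2(value + 1) minus the gene's mean over the 5 DMSO libraries; the colour scale ends 4 units to either side and G0S2 lies beyond the upper end in the later decitabine libraries. The 4 decitabine libraries of 72 and 120 h are the highest in 21 rows and the lowest in the row of SOD2, and IL6 shows no difference because it was listed at 0 throughout.

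Among the 9 cytokine genes, of which 7 were tested, 4 rose at 120 h and 1 at 72 h, against 9.91% and 1.88% of all genes. IL1A and IL10 reached the filter through decitabine libraries alone. IL1B (ENSG00000125538.12, chr2:112829751-112836903, hg38), which encodes the secreted pyrogen interleukin-1 beta, read 8.93 and 15.8, 6.05, and 9.16 and 14.2 in the DMSO libraries of 6, 72 and 120 h. With decitabine it read 15.4 and 16.1 at 6 h, 46.9 and 53.6 at 72 h and 174 and 155 at 120 h. The 6 h libraries overlapped, whereas the later decitabine libraries lay far above every DMSO library, with log2 changes of 2.86 ± 0.45 (adjusted p = 0.0177) at 72 h and 3.73 ± 0.36 (adjusted p = 0.000521) at 120 h. The call at 72 h was lost without decitabine 120 h replicate 1 or replicate 2 (log2 change 2.86, adjusted p = 0.0576 to 0.0582). IL1A, which encodes the membrane-bound and alarmin form interleukin-1 alpha and lies 45.2 kb from IL1B on chromosome 2, was near the detection limit in DMSO (3.84 and 2.75 at 6 h, 4.98 at 72 h and 2.40 and 3.22 at 120 h). Decitabine libraries gave 4.31 and 4.48, then 14.5 and 12.4, then 39.6 and 58.4. Both later pairs lay above every other library, and the log2 change at 120 h was 3.70 ± 0.43 (adjusted p = 0.00121).

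TNF, a main activating ligand of the pathway, was already well expressed in DMSO, at 260.5 and 207, 181, and 322 and 231. Decitabine libraries read 258 and 206 at 6 h, 452 and 261 at 72 h and 634 and 537 at 120 h, so the groups overlapped at 6 h and were apart at 120 h. The log2 change at 120 h was 1.10 ± 0.30 (adjusted p = 0.0408), and the call was lost when any 1 of the 8 libraries of 6 and 120 h was left out (log2 change 0.86 to 1.33, adjusted p = 0.0634 to 0.223). Its neighbour LTB, which encodes the membrane anchor of the lymphotoxin heterotrimer and lies 2.19 kb away on chromosome 6, reached 94.7 and 156 at 72 h and 94.5 and 96.6 at 120 h, against 57.2 to 79.3 in DMSO, and was not called (log2 change at 120 h 0.50 ± 0.28, adjusted p = 0.288). IL18, an inflammasome-processed cytokine that prompts interferon gamma release, read 60.1 to 82.8 in DMSO, 139 and 201 with decitabine at 72 h and 206 and 195 at 120 h. Its groups were apart at both times, and the log2 change at 120 h was 1.44 ± 0.26 (adjusted p = 0.00881). That call was lost without DMSO 120 h replicate 2 or either decitabine library of 120 h (log2 change 1.31 to 1.48, adjusted p = 0.0599 to 0.0729).

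IL1RN and IL10, the genes for restraining cytokines, were not called at any time. IL1RN, the receptor antagonist that blocks interleukin-1, read 18.9 to 21.6 in DMSO, 74.9 and 22.6 in the decitabine libraries of 72 h and 65.9 and 72.1 in those of 120 h. The 2 libraries of 72 h thus disagreed, and the log2 change at 120 h was 1.63 ± 0.49 (adjusted p = 0.0575). Without decitabine 72 h replicate 1 or replicate 2 the change at 120 h stayed 1.63 and passed the threshold, with only the shared spread and the genes kept altered. The change at 72 h was 1.89 without replicate 2, from 1 library against 1. IL10, an anti-inflammatory cytokine, read 6.75 and 6.07 at 72 h and 24.7 and 10.2 at 120 h with decitabine, against 3.14 to 4.70 in DMSO, a log2 change at 120 h of 1.91 ± 0.58 (adjusted p = 0.0607) that passed without decitabine 72 h replicate 1 or 2 (log2 change 1.91, adjusted p = 0.0484 to 0.0485).

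Of the 7 signalling members, 3 rose at 120 h, against 9.91% of all genes. Of these, TRAF1 and BIRC3 reached the filter through decitabine libraries alone. MAP3K8, the kinase Tpl2 that links the pathway to ERK activation, read 131 to 190.4 in the DMSO libraries, 132 and 131 after 6 h of decitabine, 308 and 393 after 72 h and 373 and 349 after 120 h. All 4 later decitabine libraries were higher than any other library, with log2 changes of 1.30 ± 0.28 (adjusted p = 0.0574) at 72 h and 1.19 ± 0.23 (adjusted p = 0.0113) at 120 h. The 120 h call was lost without DMSO 120 h replicate 1 or either decitabine library of 120 h (log2 change 0.92 to 1.23). Without decitabine 72 h replicate 1 the change at 72 h was 1.48, from 1 library against 1. BIRC3, a ubiquitin ligase of the TNF receptor complex (cIAP2), was low in DMSO at 4.18 and 10.1, 3.87, and 2.60 and 2.09. With decitabine it read 4.68 and 10.1 at 6 h, 6.65 and 25.9 at 72 h and 36.98 and 24.8 at 120 h. Its groups overlapped at 6 h and separated at 120 h, where the log2 change was 3.23 ± 0.70 (adjusted p = 0.017), a call lost without any 1 of the 4 libraries of 120 h (log2 change 2.95 to 3.51, adjusted p = 0.0713 to 0.121). TRAF1, an adaptor of TNF receptors, read 2.73 to 9.59 in DMSO, 15.8 and 13.1 with decitabine at 72 h and 29.3 and 39.6 at 120 h, where the log2 change was 2.08 ± 0.59 (adjusted p = 0.0475). That call was lost without any 1 of the 4 libraries of 120 h or the 2 DMSO libraries of 6 h (log2 change 1.73 to 2.44, adjusted p = 0.0715 to 0.235).

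None of the 3 interleukin-1 receptor-associated kinases was called. IRAK1, the most abundant member per kilobase, read 1328 to 1951 in DMSO, 1099.7 and 726 in the decitabine libraries of 72 h and 1217 and 1397 in those of 120 h. The decitabine libraries of 72 h lay below all others, and the lone DMSO library of 72 h, at 1951, was the highest of all. The log2 change at 72 h was -1.13 ± 0.26 (adjusted p = 0.0651), and -0.76 with all DMSO libraries as the control. At 120 h the groups overlapped (log2 change -0.13 ± 0.21, adjusted p = 0.728). Without decitabine 72 h replicate 1 or replicate 2 the change at 72 h ran from -1.43 to -0.83, each from 1 library against 1. IRAK3, an inhibitory kinase-dead relative expressed in monocytes, was at 3037 and 2846 at 120 h with decitabine and 2143 to 2562 in DMSO, a log2 change of 0.38 ± 0.15 (adjusted p = 0.124) that passed without decitabine 72 h replicate 1 or 2 (log2 change 0.38, adjusted p = 0.0191 to 0.0192). IRAK2 read 34.3 and 33.5 with decitabine at 120 h and 13.5 to 22.0 in DMSO, a log2 change of 0.88 ± 0.45 (adjusted p = 0.231). RIPK2, the kinase downstream of the peptidoglycan sensor NOD2, read 90.4 to 124 in DMSO and 76.2 to 118 with decitabine, and its groups overlapped at 6 and 120 h (log2 change at 120 h -0.07 ± 0.23, adjusted p = 0.882).

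No gene for a REL subunit was called at any time. NFKB1, whose p105 product is processed to p50, had the highest level per kilobase of the 5 (156, against 3.87 to 48.0) and varied widely between libraries. It read 1154 and 1015 in DMSO at 6 h, 978 at 72 h and 605 and 1029 at 120 h. Decitabine libraries read 663 and 1218, 616 and 1873, and 418 and 427, so the highest value of all belonged to decitabine 72 h replicate 2 and the 2 lowest to decitabine at 120 h. The log2 change at 120 h was -0.90 ± 0.50 (adjusted p = 0.277). RELA, the transactivating partner of p50, and REL stayed within 209.7 to 357 and 492 to 722 across all libraries, with log2 changes at 120 h of -0.39 ± 0.25 and -0.01 ± 0.17 (adjusted p = 0.348 and 0.973).

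The subunits of the non-canonical branch, RELB and NFKB2, sat higher in decitabine at 120 h without passing the test. RELB read 4.92 to 14.4 in DMSO, 21.7 and 11.8 with decitabine at 72 h and 38.1 and 40.2 at 120 h, a log2 change at 120 h of 1.39 ± 0.41 (adjusted p = 0.055). It passed without decitabine 72 h replicate 1 or 2 (log2 change 1.39, adjusted p = 0.0229 to 0.0243). NFKB2, which encodes p100 and its product p52, read 19.0 and 7.40 in DMSO at 6 h and 29.1 and 18.4 at 120 h, and 77.9 in the lone DMSO library of 72 h. Decitabine libraries read 11.7 and 21.6, 64.2 and 82.4, and 64.3 and 84.4, so that the lone library was as high as the treated ones. At 120 h the log2 change was 1.63 ± 0.49 (adjusted p = 0.0565), and it passed without either DMSO library of 6 h or either decitabine library of 72 h (log2 change 1.63, adjusted p = 0.039 to 0.0416).

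Of the 5 IkB family genes, NFKBIA and NFKBIZ rose at 120 h. NFKBIA, the classic inhibitor that NF-kB itself induces, read 184 to 215 in DMSO and 205 and 214 with decitabine at 6 h. It then read 287 and 329 at 72 h and 369 and 408 at 120 h, all above every other library, and the log2 change at 120 h was 0.92 ± 0.18 (adjusted p = 0.0108). Its call was lost without DMSO 120 h replicate 1 or either decitabine library of 120 h (log2 change 0.85 to 1.00, adjusted p = 0.0627 to 0.0942). NFKBIZ, a nuclear member needed for a secondary wave of inflammatory genes, read 19.1 to 49.8 in DMSO, 65.4 and 60.6 with decitabine at 72 h and 166 and 140.0 at 120 h. The log2 change at 120 h was 2.26 ± 0.42 (adjusted p = 0.00903), a call lost without either decitabine library of 120 h (log2 change 2.14 to 2.39, adjusted p = 0.0531 to 0.0774). The DMSO libraries of 120 h differed from each other, and the change was 2.93 without replicate 1 (49.8) and 1.60 without replicate 2 (19.1). These are the genes whose promoter sequences, each with 1 NF-kB match, are printed above. NFKBIB, NFKBIE and the atypical member BCL3 had log2 changes at 120 h of 0.02 ± 0.24, 0.18 ± 0.40 and 0.59 ± 0.82 (adjusted p = 0.972, 0.802 and 0.682). The libraries of 120 h overlapped in NFKBIB (104 to 186 over all libraries) and NFKBIE (156 to 428). At 6 h both decitabine libraries of NFKBIE (332 and 428) lay above all DMSO libraries (156 to 259), and it was not called. BCL3 read 2.86 to 19.8 in DMSO and 31.0 and 22.9 with decitabine at 120 h.

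**Figure D2:**
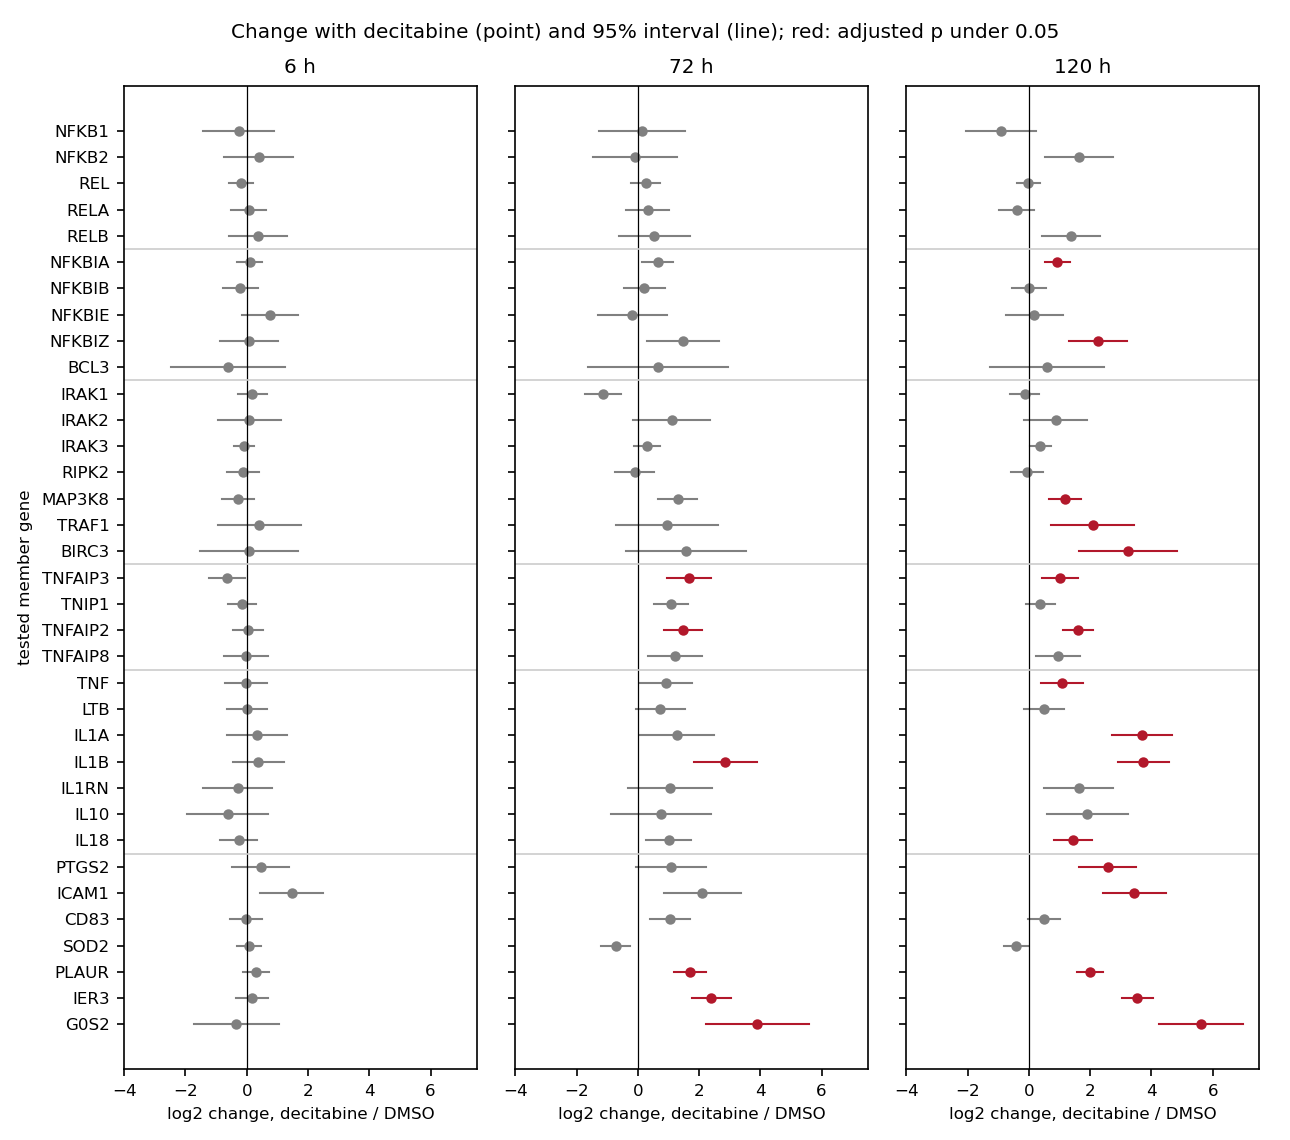
Log2 change with decitabine against DMSO (horizontal axis, on the log2(value + 1) scale) of the 35 tested members at 6, 72 and 120 h; points are limma estimates, lines their 95% intervals, and red marks an adjusted p under 0.05. No point is red at 6 h, 6 are at 72 h and 16 at 120 h, all to the right of 0.

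Among the TNF-induced genes, TNFAIP3 and TNFAIP2 rose at both later times. TNFAIP3 encodes A20, the deubiquitinase that shuts the pathway off, and read 365 and 352, 219, and 329 and 291 in DMSO. Decitabine libraries read 191 and 268 at 6 h, below both controls, then 555 and 880.0 at 72 h and 682 and 588 at 120 h, above all of them. The log2 change was 1.67 ± 0.32 (adjusted p = 0.0376) at 72 h and 1.03 ± 0.26 (adjusted p = 0.0295) at 120 h. The call at 72 h was lost when any 1 of the 8 libraries of 6 and 120 h was left out (log2 change 1.67, adjusted p = 0.0559 to 0.0856), and that at 120 h without any 1 of the 4 libraries of 120 h or the 2 DMSO libraries of 6 h (log2 change 0.92 to 1.14, adjusted p = 0.0551 to 0.177). TNFAIP2, first found as a TNF-responsive gene of endothelium, read 225 to 277 in DMSO, 749 and 805 with decitabine at 72 h and 839 and 638 at 120 h. Its log2 changes were 1.48 ± 0.27 (adjusted p = 0.0333) and 1.60 ± 0.22 (adjusted p = 0.00237), and the call at 72 h was lost without any 1 of the 4 libraries of 120 h or the 2 DMSO libraries of 6 h (log2 change 1.48, adjusted p = 0.0603 to 0.0693).

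TNIP1, a partner of A20, and TNFAIP8, a survival factor, were higher in all later decitabine libraries and were not called. TNIP1 read 711 to 932 in DMSO, 1286 and 1784 at 72 h and 1169 and 1165 at 120 h with decitabine, with log2 changes of 1.09 ± 0.25 (adjusted p = 0.0646) and 0.38 ± 0.20 (adjusted p = 0.252). TNFAIP8 read 1629 to 2259 in DMSO, 2805 and 6236 at 72 h and 3399 and 3250.0 at 120 h with decitabine, with log2 changes of 1.22 ± 0.39 (adjusted p = 0.15) and 0.94 ± 0.32 (adjusted p = 0.081). The library that stood apart, decitabine 72 h replicate 2, gave the highest value of both. Without decitabine 72 h replicate 1 the 72 h changes of TNIP1 and TNFAIP8 were 1.33 and 1.80, from 1 library against 1. Without either library of that group the change of TNFAIP8 at 120 h stayed 0.94 and passed the threshold, with only the shared spread and the genes kept altered.

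Of the 7 effector genes, 5 rose at 120 h and 3 at 72 h, against 9.91% and 1.88% of all genes. ICAM1 and G0S2 reached the filter through decitabine libraries alone. IER3 (ENSG00000137331.12, chr6:30743199-30744554, hg38), an immediate early gene that modulates apoptosis, read 70.2 and 54.5, 58.8, and 57.3 and 56.6 in DMSO. With decitabine it read 65.7 and 74.0 at 6 h, 361 and 273 at 72 h and 687 and 666 at 120 h. The groups overlapped at 6 h, and afterwards the treated libraries were several times higher, with log2 changes of 2.40 ± 0.28 (adjusted p = 0.00485) and 3.55 ± 0.22 (adjusted p = 8.84e-05). Whether reads of IER3 and of its antisense gene IER3-AS1 were counted apart by strand is not stated.

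G0S2 (ENSG00000123689.6, chr1:209675420-209676388, hg38), an inhibitor of the triglyceride lipase ATGL, was at 1.92 and 0, 1.99, and 1.60 and 2.41 in DMSO, and at 0 and 0.814 with decitabine at 6 h. It then read 40.8 and 47.0 at 72 h and 158 and 134 at 120 h, from a background of a few counts at most. Fitted log2 changes were 3.90 ± 0.74 (adjusted p = 0.0384) and 5.62 ± 0.61 (adjusted p = 0.000799), and with controls so low their size depends on the pseudocount (4.43 to 5.88 at 120 h over the 21 alternatives). The call at 72 h was lost without decitabine 72 h replicate 2, either decitabine library of 6 h or any library of 120 h (log2 change 3.80 to 3.90, adjusted p = 0.0603 to 0.101). PLAUR (ENSG00000011422.12, chr19:43646095-43670547, hg38), the urokinase receptor of migrating myeloid cells, read 194 to 295 in DMSO and 272 and 292 with decitabine at 6 h, then 813 and 874 and 1146 and 1098. Treated libraries of 72 and 120 h were well clear of all others, with log2 changes of 1.71 ± 0.23 (adjusted p = 0.00984) and 1.99 ± 0.19 (adjusted p = 0.000452).

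ICAM1, the adhesion molecule that binds leukocyte integrins, read 5.25 and 5.17, 14.5, and 9.91 and 8.49 in DMSO. With decitabine it read 22.2 and 11.7 at 6 h, 44.9 and 95.8 at 72 h and 120.0 and 101 at 120 h. The treated libraries were above their own controls at each time, and the log2 change was 1.46 ± 0.45 at 6 h (unadjusted p = 0.0105, adjusted p = 1), 2.11 ± 0.55 (adjusted p = 0.094) at 72 h and 3.45 ± 0.45 (adjusted p = 0.00182) at 120 h. Without decitabine 72 h replicate 1 its change at 72 h was 2.65, from 1 library against 1. The other member with an unadjusted p under 0.05 at 6 h was TNFAIP3, with a log2 change of -0.66 ± 0.26 (unadjusted p = 0.0321, adjusted p = 1). PTGS2, the inducible cyclooxygenase of prostaglandin synthesis, read 17.8 to 42.2 in DMSO, 23.8 and 44.9 at 6 h, 74.0 and 53.1 at 72 h and 250.3 and 194 at 120 h with decitabine. Its log2 change was 2.58 ± 0.41 (adjusted p = 0.00453) at 120 h and 1.09 ± 0.50 (adjusted p = 0.294), not called, at 72 h.

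CD83 and SOD2 were the effectors that were not called. CD83, a surface marker of activated dendritic cells, was highest at 72 h (251 and 365 with decitabine, against 122 to 173 in DMSO) and at 189.9 and 195 at 120 h, with log2 changes of 1.04 ± 0.28 (adjusted p = 0.109) and 0.50 ± 0.23 (adjusted p = 0.194). SOD2, the mitochondrial superoxide dismutase and a textbook NF-kB target, went the other way. It read 4224 to 4871 in DMSO, 3382 and 2562 with decitabine at 72 h and 3178 and 3417 at 120 h, so that all 4 later treated libraries were below every other library. Its log2 changes were -0.73 ± 0.21 (adjusted p = 0.12) and -0.41 ± 0.17 (adjusted p = 0.14). Without decitabine 72 h replicate 1 the 72 h changes of CD83 and SOD2 were 1.30 and -0.93, from 1 library against 1. Without either library of that group the change of SOD2 at 120 h stayed -0.41 and passed the threshold. SOD2 overlaps WTAP on the opposite strand and a second SOD2 identifier of at most 4.84, so its counts are uncertain to that extent.

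**Figure D3:**
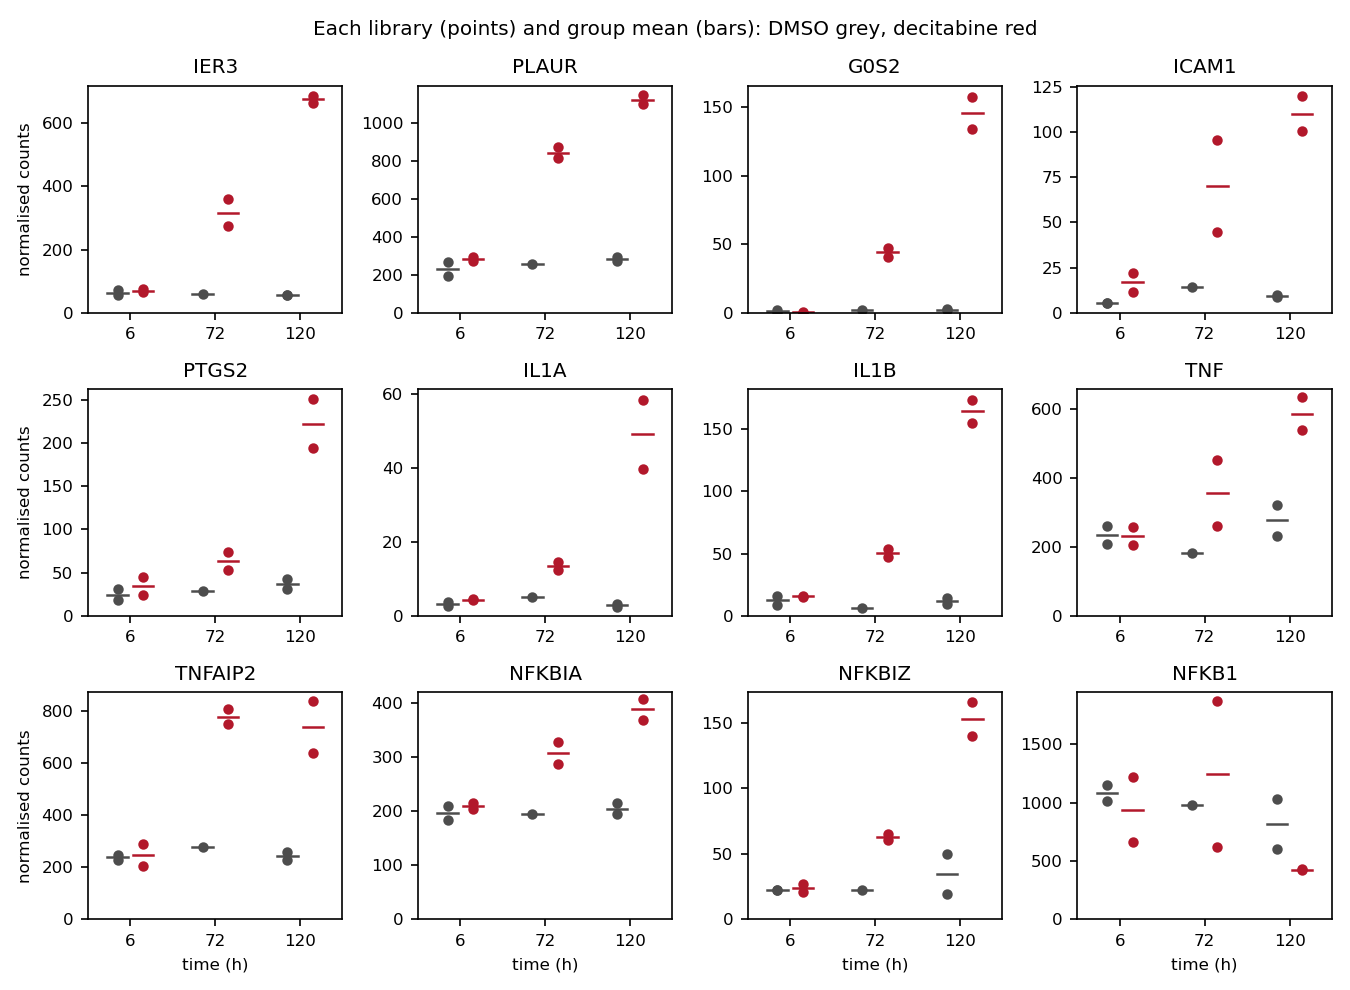
Normalised counts (vertical axis, linear, from 0) of 12 members in every library at 6, 72 and 120 h; points are libraries, bars group means, grey DMSO and red decitabine. The decitabine points of 120 h lie above all DMSO points in each panel other than NFKB1, where they are the 2 lowest; TNF at 72 h and NFKB1 show the spread between duplicates.

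The treatment effect itself grew after 6 h in part of the members. Compared with the effect at 6 h, that at 120 h was larger in 9 members and smaller in 0, where 4.27% of all genes were called larger and 1.63% smaller. These were MAP3K8, TNFAIP3, TNFAIP2, IL1A, IL1B, IL18, PLAUR, IER3 and G0S2. The count was 4 without any 1 of the 6 h libraries, 5 without DMSO 120 h replicate 1 or 2, 1 or 2 without decitabine 120 h replicate 1 or 2, and 19 (18 larger and 1 smaller) without either decitabine library of 72 h. In those last fits 10.01 to 10.05% of all genes were larger and 8.73 to 8.84% smaller, and in the others that lost calls 1.17 to 2.28% were larger. At 72 h the effect exceeded that at 6 h in 1 member, IER3, against 0.557% of all genes larger and 0.0557% smaller. That call was lost without any 1 library of 6 or 120 h. Without either decitabine library of 72 h, 1 library stood against 1 at 72 h, and more members and more of all genes were called. Between 72 and 120 h no effect differed by the test (0% of all genes), and 4 members and 1022 genes in all had an unadjusted p under 0.05, while without decitabine 72 h replicate 1 there were 4 calls (2 larger and 2 smaller), beside 7.79% of all genes larger and 10.5% smaller, shares near those of the members. Although 16 members were called at 120 h and 6 at 72 h, the data do not show that the effects at these times differ. In DMSO, no member changed with culture time from 6 to 72 h (2 members and 456 genes at an unadjusted p under 0.05) or from 6 to 120 h (1 member and 865 genes), and none of all genes did by limma (0%). Under the 20 or 21 alternatives run, the member counts in DMSO stayed at 0, while up to 112 of all genes were higher and 4 lower from 6 to 72 h (with no filter), and up to 9 higher and 3 lower from 6 to 120 h.

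**Figure D4:**
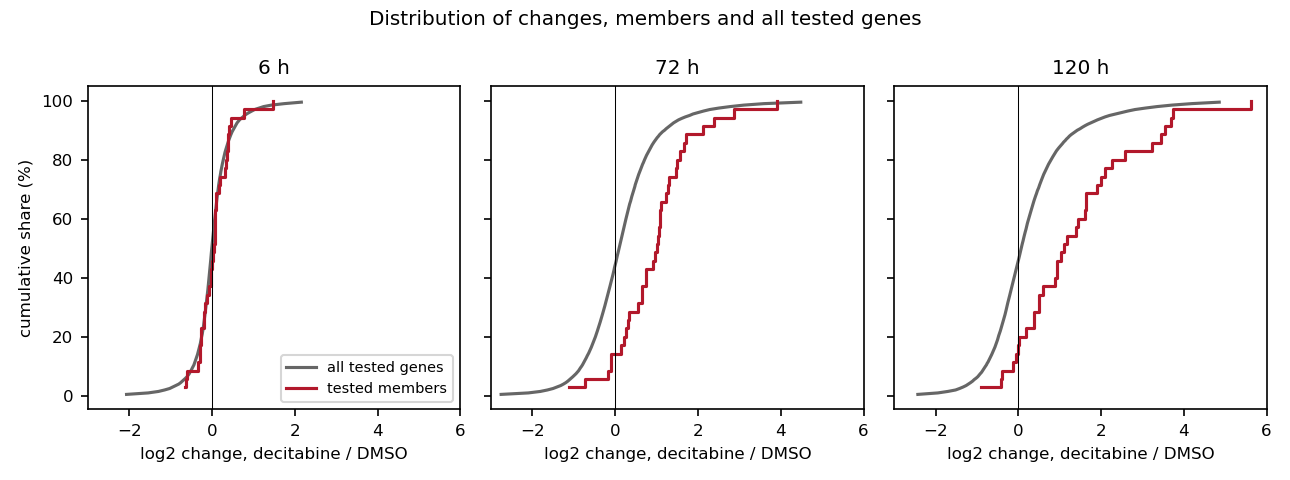
Cumulative share (vertical axis, percent) of the log2 change with decitabine (horizontal axis) for the 35 tested members (red) and all 16152 tested genes (grey) at 6, 72 and 120 h. The curves overlie at 6 h (medians 0.04 and -0.01), and the members lie to the right at 72 h (1.00 and 0.09) and 120 h (1.10 and 0.07); 6 of the members are tested only because they are high in decitabine.

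Receptors, kinases and further targets of the pathway were followed through 4 lists of 116 other genes, of which 94 were tested. The lists were chosen with earlier results of these data known, so their counts are not independent support. At 120 h 32 rose and 2 fell, against 9.91% and 6.00% of all genes. At 72 h 5 rose, against 1.88% of all genes, and 0 changed at 6 h. Of the 94, 11 reached the filter through decitabine libraries alone, among them IL1R1, NOD2, LY96, MMP9, CCRL2, AIM2 and IL1R2. Of the other 83, 23 rose and 2 fell at 120 h, where 8.32% of all such genes rose. The 120 h count fell without either decitabine library of 120 h or DMSO 120 h replicate 2. The 72 h count rose without either decitabine library of 72 h, where 1 library stood against 1, and fell without either decitabine library of 120 h. The counts of all genes moved the same way. Of the 24 receptors and adaptors tested, 7 rose, against 9.91% of all genes, among them CD14, which is also in the monocyte list below. IL1R1, the signalling receptor of interleukin-1, went from a mean of 2.80 ± 1.57 (SD, n = 2) at 120 h in DMSO to 131 ± 8.71 with decitabine, a log2 change of 5.18 ± 0.48 (adjusted p = 0.000436), so that the receptor rose alongside its ligands IL1A and IL1B. NOD2, an intracellular sensor of bacterial peptidoglycan, went from 2.51 ± 1.77 to 47.5 ± 2.35 (log2 change 3.88 ± 0.62, adjusted p = 0.00481). IL18R1, the receptor of interleukin-18, went from 14.1 ± 6.79 to 147 ± 9.44 (log2 change 3.37 ± 0.57, adjusted p = 0.00596; log2 change 3.30, adjusted p = 0.0502 without decitabine 120 h replicate 2). LY96, the co-receptor that presents endotoxin to TLR4, went from 2.80 ± 1.99 to 15.2 ± 3.94 (log2 change 2.18 ± 0.59, adjusted p = 0.0402), a call lost without any 1 of the DMSO libraries of 6 and 120 h or the decitabine libraries of 6 h (log2 change 1.62 to 2.74, adjusted p = 0.0509 to 0.19).

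The IkB kinase and ubiquitin machinery, all reaching the filter in DMSO, had 5 of 36 tested genes higher and 1 lower at 120 h, against 9.91% and 6.00% of all genes, and a median log2 change of 0.15. ZC3H12A, an RNase that degrades inflammatory mRNAs, went from 50.0 ± 9.83 to 212 ± 80.1 (log2 change 2.02 ± 0.54, adjusted p = 0.0369). The deubiquitinases CYLD and OTUD7B went from 1048 ± 133 to 2155 ± 84.8 (log2 change 1.04 ± 0.28, adjusted p = 0.0359) and from 183 ± 20.4 to 291 ± 4.13 (log2 change 0.67 ± 0.19, adjusted p = 0.045). TANK, a scaffold of TRAF signalling, went from 732 ± 27.3 to 1491 ± 27.3 (log2 change 1.03 ± 0.20, adjusted p = 0.0117). TAB1, a subunit of the TAK1 kinase complex, fell from 319.6 ± 18.6 to 144 ± 10.7 (log2 change -1.15 ± 0.32, adjusted p = 0.045). Each of these 5 calls was lost for some left-out library: those of CYLD and OTUD7B were lost without any 1 of the 8 libraries of 6 and 120 h (log2 change 0.91 to 1.17, adjusted p = 0.0589 to 0.176; log2 change 0.56 to 0.78, adjusted p = 0.0693 to 0.223). Those of ZC3H12A and TAB1 were lost without any 1 of the 4 libraries of 120 h or the 2 DMSO libraries of 6 h (log2 change 1.63 to 2.41, adjusted p = 0.0609 to 0.222; log2 change -1.23 to -1.07, adjusted p = 0.0747 to 0.209), and that of TANK without any 1 of the libraries of 120 h (log2 change 0.99 to 1.06, adjusted p = 0.0569 to 0.084).

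Of 23 further NF-kB targets tested, 16 rose and 1 fell at 120 h, against 9.91% and 6.00% of all genes. This list too was chosen with earlier results of these data known, so its excess is not independent support. Of the 19 that reached the filter in DMSO 12 rose and 1 fell. MMP9, the gelatinase of neutrophil granules, was at 0 and 3.22 in DMSO at 120 h and 225 ± 2.82 with decitabine (adjusted p = 0.000738). Its fitted log2 change depends on the pseudocount and was 5.74 without DMSO 120 h replicate 1 and 7.82 without replicate 2. The chemokine genes CCL2 and CCL5 went from 52.1 ± 5.94 to 836 ± 5.88 (log2 change 3.98 ± 0.31, adjusted p = 0.000175) and from 138 ± 1.01 to 1259.8 ± 19.1 (log2 change 3.18 ± 0.36, adjusted p = 0.000945). CCRL2, a non-signalling chemerin receptor, was at 0 and 0.700 in DMSO and 40.8 ± 2.03 with decitabine (adjusted p = 0.000481). NLRP3, the sensor of the best known inflammasome, fell from 668 ± 72.8 to 407 ± 17.5 (log2 change -0.71 ± 0.19, adjusted p = 0.0385), a call lost without any 1 of the 8 libraries of 6 and 120 h (log2 change -0.82 to -0.60, adjusted p = 0.0677 to 0.204). Among the 11 tested genes of the inflammasome and interleukin-1 handling, where 9.91% and 6.00% are the shares of all genes, 4 rose and 0 fell (2 of the 9 that reached the filter in DMSO rose). They were AIM2, a sensor of cytosolic DNA (2.97 ± 3.43 to 84.7 ± 0.479, log2 change 4.77 ± 0.69, adjusted p = 0.00307), and NLRC4, a sensor of bacterial flagellin (27.8 ± 12.9 to 219.6 ± 1.62, log2 change 3.01 ± 0.33, adjusted p = 0.000833). The change of AIM2 was 3.74 without DMSO 120 h replicate 1 and 5.79 without replicate 2. The others were MEFV, which encodes pyrin (85.9 ± 3.76 to 418 ± 1.13, log2 change 2.27 ± 0.21, adjusted p = 0.000385), and IL1R2, the decoy receptor that binds interleukin-1 without signalling (5.47 ± 2.69 to 62.4 ± 14.6, log2 change 3.34 ± 0.47, adjusted p = 0.00269).

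Markers of other myeloid cells moved at the same times as the members. For the counts below, 9.91% of all genes rose and 6.00% fell at 120 h. The summed level of 16 monocyte and macrophage genes was 110834 to 139146 in the DMSO libraries and decitabine at 6 h, 223631 to 225776 with decitabine at 72 h and 277480 to 280095 at 120 h. Most of it was LYZ, which encodes lysozyme and read 109603 to 277087. Of the 10 tested, 6 rose at 120 h, CD14, CD68 and LYZ among them, and CCR2 fell, while C1QB and C1QC were at 0 in every library and C1QA, MRC1, CD163 and MARCO did not exceed 6.22. The 14 late neutrophil genes summed to 7565 to 11355, then 13945 to 19408, then 39232 to 41619, with 7 higher and 1 lower at 120 h. Most of that sum was S100A8 (2321 to 14804) and S100A9 (3805 to 21015). At 120 h LTF read 29.7 and 34.01 in DMSO and 9.73 and 13.1 with decitabine. MMP8 read 2.97 and 2.36 with decitabine, against 12.8 or more in DMSO. CEACAM8 and CXCR2 overlapped, and the rest of the list was higher in both decitabine libraries. The 13 eosinophil, basophil and mast cell genes summed to 13603 to 24427, then 69674 to 83364, then 117583 to 128261, with 10 of 12 tested higher at 120 h. Nearly all of that sum was PRG2 (13439 to 118412). Lymphocyte genes (89.4 to 121.8, then 476 to 755, then 986 to 989.8, with CD8A at 0) and stromal genes (469 to 694, then 1179 to 1927, then 2047 to 2162, with COL3A1 at 0) summed higher in the same libraries, with 4 of 6 and 2 of 6 tested genes called. The stromal sum was mostly PECAM1 (448 to 1875), with LUM the other gene called, and CDH5, EPCAM and COL1A1 did not exceed 5.46. The promyelocyte list stayed between 111878 and 209604, with MYC lower and RNASE2 higher at 120 h. The part of these markers in the members' changes was not tested, and in bulk RNA more cells of a type and more RNA per cell cannot be told apart.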

How the data were processed

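Normalised gene-level RNA-seq values of HL-60 cells were used as deposited: the unit is signal, which from the values is an estimated count divided by a size factor per library. Per the submitters' processing notes the build was hg38, and the tools listed there, without their roles, are DESeq2, featureCounts, limma, STAR and Salmon 1.2.1. Which gene annotation release they used is not stated there. Of the low values, 59.4 to 65.3% were whole multiples of the value of 1 count (tolerance 0.01), so counts were not recovered and no count test was run. The deposited heading names 12 libraries over 11 columns and was read as starting at the symbol, under which libraries of a group differed less than libraries of different groups (median absolute log2 difference 0.299 against 0.439, and 0.429 against 0.426 under the other reading). DMSO 72 h replicate 2 has no column under this reading and was not analysed here.

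Genes at 10 or more in at least 2 libraries were kept (16152 of 60240). limma 3.58.1 in R 4.3.3 was fitted to log2(value + 1) with 1 mean per group and a variance trend, on 5 residual degrees of freedom (8.4 after moderation). Fold changes are on that scale, which understates low genes. Benjamini-Hochberg adjustment ran over all genes kept, and an adjusted p under 0.05 was called. The fit was tested on simulated data. Named genes are the 37 members, and from each of the 4 pathway lists up to 4 called higher and 4 called lower at 120 h, with the largest changes. Members and lists were chosen with earlier results of these data known. Tables and figures used pandas 2.3.3 and matplotlib 3.10.9. Alternatives covered the pseudocount, filter, scaling, variance model, sample weights, libraries fitted, replicate block and each library left out.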

Additional observations from a re-analysis of the deposited data

Results flagged for a closer look

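The treatment effect differed between times in 9 members, by limma's test of the difference itself. Effects at 120 h minus those at 6 h, on the log2 scale with their SE, are given first for the effector and feedback genes. The difference was 3.38 ± 0.32 (adjusted p = 0.00148) for IER3, 5.96 ± 0.86 (adjusted p = 0.00791) for G0S2 and 1.68 ± 0.26 (adjusted p = 0.011) for PLAUR. For TNFAIP3 it was 1.69 ± 0.36 (adjusted p = 0.0351) and for TNFAIP2 1.57 ± 0.31 (adjusted p = 0.0266). The kinase gene MAP3K8 gave 1.47 ± 0.33 (adjusted p = 0.0377). Among the cytokine genes IL1A gave 3.36 ± 0.61 (adjusted p = 0.0193), IL1B 3.36 ± 0.52 (adjusted p = 0.0098) and IL18 1.71 ± 0.37 (adjusted p = 0.0367). IER3 also differed between 72 and 6 h, by 2.23 ± 0.36 (adjusted p = 0.0378). In all 9 genes both decitabine libraries of 120 h were above both DMSO libraries of 120 h.

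Of the differences between 120 and 6 h, that of IER3 was called under all 21 alternatives (3.195 to 3.56). G0S2, whose difference was 5.19 without DMSO 6 h replicate 1 and 6.74 without replicate 2, missed the threshold without decitabine 120 h replicate 1 (log2 change 5.85, adjusted p = 0.0544), IL1B without either decitabine library of 120 h (log2 change 3.27 to 3.44, adjusted p = 0.0536 to 0.0651), and PLAUR without either of these or decitabine 6 h replicate 1 (log2 change 1.63 to 1.71, adjusted p = 0.057 to 0.0689). IL1A, IL18 and TNFAIP3 missed it without any 1 of the 8 libraries of 6 and 120 h (in turn log2 change 3.08 to 3.63, adjusted p = 0.0519 to 0.109; log2 change 1.48 to 1.93, adjusted p = 0.0696 to 0.143; log2 change 1.45 to 1.93, adjusted p = 0.058 to 0.143). MAP3K8 missed it without 7 of these 8, DMSO 120 h replicate 2 being the exception (log2 change 1.21 to 1.57, adjusted p = 0.102 to 0.149), and TNFAIP2 without 7, decitabine 6 h replicate 1 being the exception (log2 change 1.33 to 1.76, adjusted p = 0.0615 to 0.12). The 72 h difference of IER3 was lost without any 1 library of 6 or 120 h (log2 change 2.05 to 2.41, adjusted p = 0.078 to 0.152).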

How the results depend on the processing

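The 100 log2 changes and differences, of 53 genes in single comparisons, were recomputed under up to 22 alternatives, 11 of which leave out a library. Of 2072 such values, 1765 kept their direction and their side of the threshold, 218 lost a call, 66 gained a call and 23 changed sign, none of them called, and 37 of the 100 were the same under every alternative run for them. For the members called, leaving out a library of a time not compared acts through the shared spread and the genes kept. The cause of the other shifts was not tested. At 72 h the 6 calls became 3 with no filter on low values, 1 with sample weights, 0 with the libraries of 72 h alone and 18 with all DMSO libraries as the control, and 2 to 16 over the left-out libraries. At 120 h the 16 calls were 8 to 23 over the left-out libraries and within 1.5 times under the other alternatives. The 72 h effect minus that at 6 h, with 1 call, gave 3 calls with a pseudocount of 5, 2 with quantile normalisation and 0 with no filter, equal totals, sample weights or the compared times alone, and 0 to 13 over the left-out libraries. The 120 h effect minus that at 6 h, with 9 calls, gave 5 with no filter, 17 with sample weights and 19 with the compared times alone, and 1 to 19 over the left-out libraries. The 120 h effect minus that at 72 h gave 0 to 4.

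Signs changed as follows. At 72 h NFKB1 became -0.00128 with quantile normalisation, -0.064 with equal totals and -0.17 with the replicate block, and ran from -0.67 to 0.94 over the left-out libraries. NFKB2 became 1.63 and NFKBIE 0.084 with all DMSO libraries as the control, and over the left-out libraries they ran from -0.27 to 0.080 and from -0.72 to 0.35. Over the same libraries BCL3 ran from -0.30 to 1.59 and NFKBIB from -0.019 to 0.45, and RIPK2 became 0.015 with the replicate block. At 120 h REL became 0.029 with quantile normalisation and 0.11 with equal totals, NFKBIB -0.15 with quantile normalisation and RIPK2 0.054 with equal totals. Over the left-out libraries REL ran from -0.11 to 0.084, NFKBIB from -0.12 to 0.15, NFKBIE from -0.22 to 0.59 and RIPK2 from -0.17 to 0.036.

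Replicate numbers did not pair the samples: over 10 pairs of groups the deviations of same-numbered samples correlated at -0.078 to 0.124, with 2 over 0.1. With the replicate block, 0 members were called at 6 h, 4 at 72 h, 16 at 120 h, 0 for the 72 h effect minus that at 6 h and 8 for the 120 h effect minus that at 6 h. Leaving out DMSO 72 h replicate 2 was not run, since it has no values, and leaving out replicate 1 of that group leaves no comparison at 72 h. At 72 h the only DMSO library is assumed to vary like the other groups. A value of 1 count is worth 0.407 to 0.961 normalised units, which limits what can be read from G0S2, IL1A, IL10 and TRAF1 in DMSO.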
